A study of Mus musculus with 4 samples.

Results

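Oxidative phosphorylation subunit genes encode the nuclear part of the mitochondrial machinery that turns the electrons of NADH and succinate into ATP. They were followed in whole-retina RNA-seq from mice injured with diphtheria toxin fragment A (DTA), an enzyme that blocks protein synthesis in the cell that makes it. The genes were taken by symbol (the Nduf, Uqcr, Cox and Atp5 families, without pseudogene symbols), which gave 78 of the 22558 gene symbols in the files. Of these, 37 were assigned to complex I, 8 to complex III, 16 to complex IV and 17 to complex V. The choice used no measured value. By symbol it leaves out some subunits, such as Cyc1 and Cox4i1, and takes in relatives that are not standard subunits, such as Ndufa4l2, Cox7a2l, Atp5s and Atp5sl. The study has 4 retinal libraries, 1 per group, from mice of about 8 weeks on a mixed background of C57BL/6 and 129. DTA mice were Msi1-CreERT2/+; R26R-DTA/+ and were sampled at day 1 and at day 5 post-injury. Control mice were +/+; R26R-DTA/+ at day 1 and at day 5, so that they too carried the R26R-DTA allele but no Cre. Cre expression was driven from Msi1, and the cells that made the toxin and the mice per library were not given in the sources used here.

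Complex I takes electrons from NADH and complex III passes them from ubiquinol to cytochrome c. Complex IV hands them to oxygen, and all of these pump protons across the inner mitochondrial membrane. Complex V, the ATP synthase, lets the protons flow back and makes ATP. In the retina the inner segments of photoreceptors are packed with mitochondria, because the ion currents of phototransduction consume much ATP. The retina is also known for producing lactate from glucose in the presence of oxygen.

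Levels are in FPKM, which divides the fragments of a gene by its transcript length and by the size of the library, and differences are of log2(FPKM + 1), DTA minus control or day 5 control minus day 1 control. There are no replicates, so no value has an error between mice and no test was possible. A gene was called higher or lower by size: a difference of at least 0.5 or at least 1, an FPKM of at least 5 in one of the libraries compared and, for DTA against control, a difference larger in size than the one between the controls for the same gene. A size of 0.5 corresponds to a ratio of about 1.41, and a size of 1 to a ratio of 2, where FPKM is high. Depth, estimated from the smallest steps in FPKM, was about 99.1 M (mega) fragments for day 1 DTA, 74.3 M for the day 1 control, 28.8 M for day 5 DTA and 35.4 M for the day 5 control. The day 1 DTA file lists only 5799 symbols and holds 22 of the members, while the other 3 libraries hold all 78.

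The libraries were checked against marker genes. Summed over the 4 rod markers with an estimate in both day 5 libraries, the level was 2632 FPKM in day 5 DTA and 9545 FPKM in the day 5 control. The markers moved unequally: Gnat1, the rod transducin, stood at 739 FPKM in day 5 DTA and 6678 FPKM in the day 5 control, while Sag, the rod arrestin, stood at 1444 FPKM in day 5 DTA and 1559 FPKM in the day 5 control. The 4 cone markers summed to 96.8 FPKM in day 5 DTA and 427 FPKM in the day 5 control, and the 4 Müller glia markers to 256 FPKM and 1085 FPKM in the same order. Most of the Müller glia sum was Glul, at 159 FPKM in day 5 DTA and 888 FPKM in the day 5 control. These markers also moved unequally, with day 5 differences of -2.47 for Glul, -1.41 for Rlbp1, -0.81 for Aqp4 and -0.19 for Slc1a3. Glul was below control at day 1 too, at 550 FPKM in DTA and 1044 FPKM in the control. The 4 bipolar cell markers summed to 289.8 FPKM in day 5 DTA and 289.1 FPKM in the day 5 control, and the 5 microglia and macrophage markers to 77.3 FPKM in day 5 DTA against 10.2 FPKM in the day 5 control. In whole-retina RNA, fewer cells of a type and less RNA per cell cannot be told apart. Markers of adjoining tissue and blood also differed between libraries, between the controls as well as at day 5. Lens markers summed to 8.41 FPKM in day 5 DTA, 130.9 FPKM in the day 5 control and 818 FPKM in the day 1 control. Pigment epithelium markers summed to 15.8 FPKM, 37.3 FPKM and 149 FPKM in the same order, and red blood cell markers to 57.7 FPKM, 27.0 FPKM and 67.2 FPKM. Their part in the members' differences was not tested. Xist, a noncoding RNA made from the silenced X, had a level of 53.7 FPKM in the day 5 control but 0.00596 FPKM in the day 1 control, so sex and day cannot be told apart between the controls.

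Most members were abundant. The median member stood at 64.8 FPKM in day 5 DTA, 61.1 FPKM in the day 5 control and 74.0 FPKM in the day 1 control. The highest was Atp5b, which encodes the catalytic beta subunit of ATP synthase (mm9 chr10:127520363-127527444), at 503 FPKM in day 1 DTA, 449.96 FPKM in the day 1 control, 508 FPKM in day 5 DTA and 428 FPKM in the day 5 control. Cox8a, the ubiquitous form of a small complex IV subunit, stood at 278 FPKM in day 5 DTA, 277 FPKM in the day 5 control and 255 FPKM in the day 1 control. At the other end were 6 members that never reached 5 FPKM in either day 5 library, namely Atp5s, Cox6a2, Cox7b2, Cox8b, Cox8c and Ndufa4l2. Cox8c, whose product is known from testis, was listed at 0 in all 4 libraries. Across the 78 members the levels of day 5 DTA and its control were correlated with r = 0.99 and rho = 0.97. The order of the genes by level was therefore nearly the same in both, and the genes of a library share its depth.

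**Figure D1:**
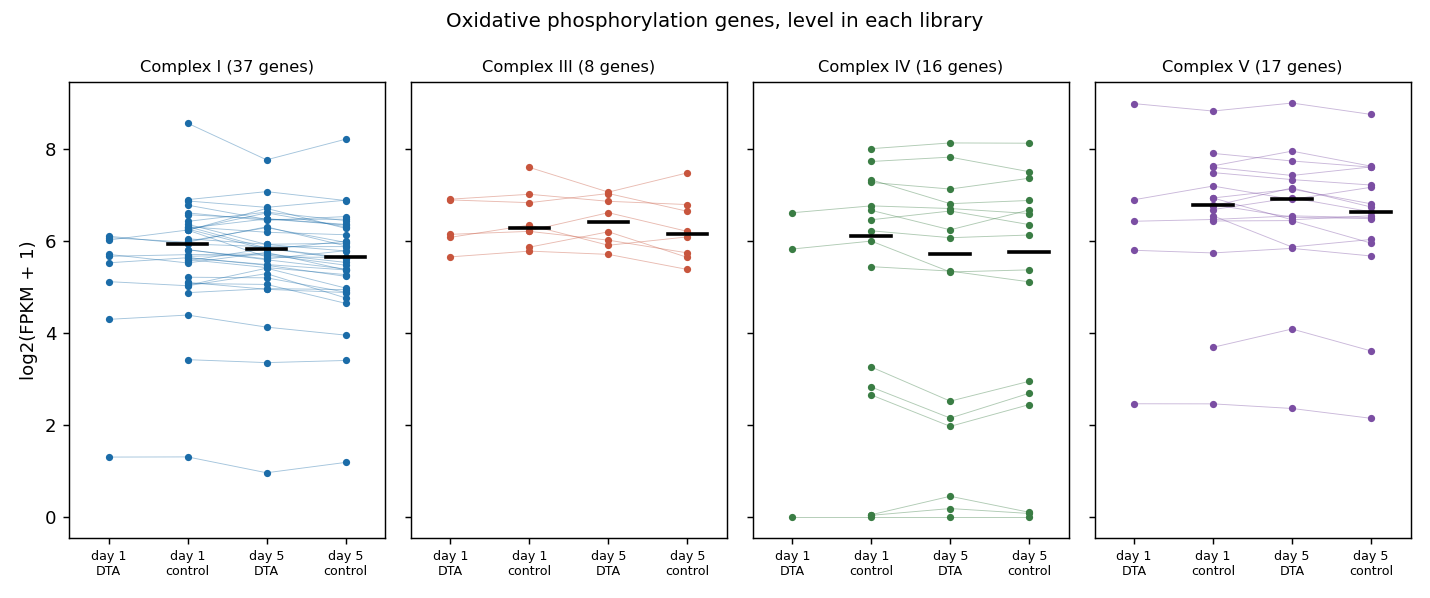
Level of every member in each library, as log2(FPKM + 1), in 1 panel per complex with the number of genes in its title. Each point is 1 gene in 1 library; day 1 DTA shows the 22 members its file holds, and the other libraries show all 78, from Cox8c at 0 to Atp5b at 508 FPKM in day 5 DTA.

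Many nuclear genes of this machinery carry binding sequences of nuclear respiratory factor 1 (NRF1) close to their start, which is why their promoters are shown. RefSeq promoters (GRCm38.p6) were found for 66 of the 78 members, and the 250 bases before the start were searched on both strands for 4 sequences. The palindromic NRF1 sequence, GCGC followed by any 2 bases and a second GCGC, stood in 12 members, or 18.2%, against 7.68% of 17425 other protein-coding genes. The other sequences were CCGGAAGT for the GA-binding protein (GABP), AANATGGC for YY1 and TCAAGGTCA for the estrogen-related receptors (ERR). GABP matched 4.55% of members and 4.26% of other genes, YY1 10.6% and 4.27%, and ERR 1.52% and 0.356%. At least 1 of the 4 was present in 33.3% of members and 15.3% of other genes. A match is a run of letters and not a shown binding site. The promoters printed are those of the NRF1 match with the highest level in the day 5 control in complexes I, IV and V, among members with 1 promoter in the table. Complex III promoters were found for Uqcr10, Uqcr11, Uqcrc1, Uqcrfs1 and Uqcrh, too few to set a share of matches beside the other complexes. None of these promoters had an NRF1 match, while those of Uqcr11 and Uqcrh had a GABP match. Each runs 5′ to 3′ and ends at the last base before the start, and capitals mark the NRF1 sequence. Ndufs5 encodes a complex I accessory subunit (minus strand, chr4:123718187-123718436), Cox6a1 the ubiquitous form of a complex IV subunit (minus strand, chr5:115348959-115349208) and Atp5k a small membrane subunit of ATP synthase (minus strand, chr5:108434400-108434649).
Ndufs5: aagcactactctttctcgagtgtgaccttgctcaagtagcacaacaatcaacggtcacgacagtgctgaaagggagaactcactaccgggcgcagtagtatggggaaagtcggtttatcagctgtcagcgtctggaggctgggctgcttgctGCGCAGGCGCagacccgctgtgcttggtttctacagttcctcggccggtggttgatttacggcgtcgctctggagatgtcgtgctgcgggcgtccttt
Cox6a1: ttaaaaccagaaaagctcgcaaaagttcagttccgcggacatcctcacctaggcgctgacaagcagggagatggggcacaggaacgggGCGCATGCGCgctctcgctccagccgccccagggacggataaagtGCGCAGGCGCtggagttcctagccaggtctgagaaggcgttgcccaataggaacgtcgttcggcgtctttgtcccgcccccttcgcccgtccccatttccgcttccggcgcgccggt
Atp5k: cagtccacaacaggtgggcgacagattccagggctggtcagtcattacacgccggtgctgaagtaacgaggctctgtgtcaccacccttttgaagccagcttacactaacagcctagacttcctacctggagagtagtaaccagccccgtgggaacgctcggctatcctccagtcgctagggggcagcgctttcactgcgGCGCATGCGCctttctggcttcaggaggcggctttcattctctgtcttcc
The match began 98 bases before the start in Ndufs5 and 50 bases before it in Atp5k. Cox6a1 had a pair of matches, which began 162 and 117 bases before the start. At day 5 the members with an NRF1 match had a median difference of 0.16, DTA minus control, and the matched members without one had a median of 0.13, which is close to it. The genes of these promoters themselves did not move together. Ndufs5 is described with complex I, Cox6a1 had a difference of 0.32 and Atp5k of -0.18.

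At day 5, when the summed rod and cone markers were below control, the oxidative phosphorylation genes as a group stayed close to control. No member of the 72 at 5 FPKM or more was called at size 1, where 8.52% of all genes at that level were called, 6.75% higher and 1.77% lower. At size 0.5, Ndufs1 and Uqcrc2 rose and Cox7a1 fell. Over all genes 31.1% were called at this size, of which 26.5% rose and 4.58% fell as shares of all genes. The members' differences ran from -0.54 to 0.56 with a median of 0.13, and 53 were above 0 and 24 below. Of the 9883 genes at 5 FPKM or more, 7370 were above 0 and 2513 below. The counts above 0 at day 5 given below for complexes and lists stand beside that background. That median is over all 78 members with no floor. At 5 FPKM or more the members' median was 0.14 and the median over all genes was 0.26, so at that level the typical member stood below the typical gene. With no floor the median over all genes was 0.06, which is below the members' 0.13. Summed FPKM of the 78 members were 6536 in day 5 DTA, against 6117 in the day 5 control, a ratio of 107%. Day 5 DTA had 2.07% of all FPKM in these genes, the day 5 control 2.04% and the day 1 control 2.21%. The sign of the median depends on the scaling: it was -0.09 when the day 5 libraries were scaled by the median ratio of genes, which brings the all-gene median to 0.03. Against the day 1 control it was also -0.09, with an all-gene median of 0.20, in a comparison where Xist also differs, as given above.

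The plot of day 5 differences shows the members beside their difference between controls. In 42 of 78 members the day 5 difference was larger in size than the difference between the controls. In 31 members day 5 DTA stood above both controls, in 24 below both, and in 22 between them. These counts have no share over all genes beside them, and neither has the 42, so no effect is read from them. The members above both controls included 6 of the 7 complex I core subunits, while those below both included Ndufa4, Uqcrh, Cox7a2l and Atp5h.

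**Figure D2:**
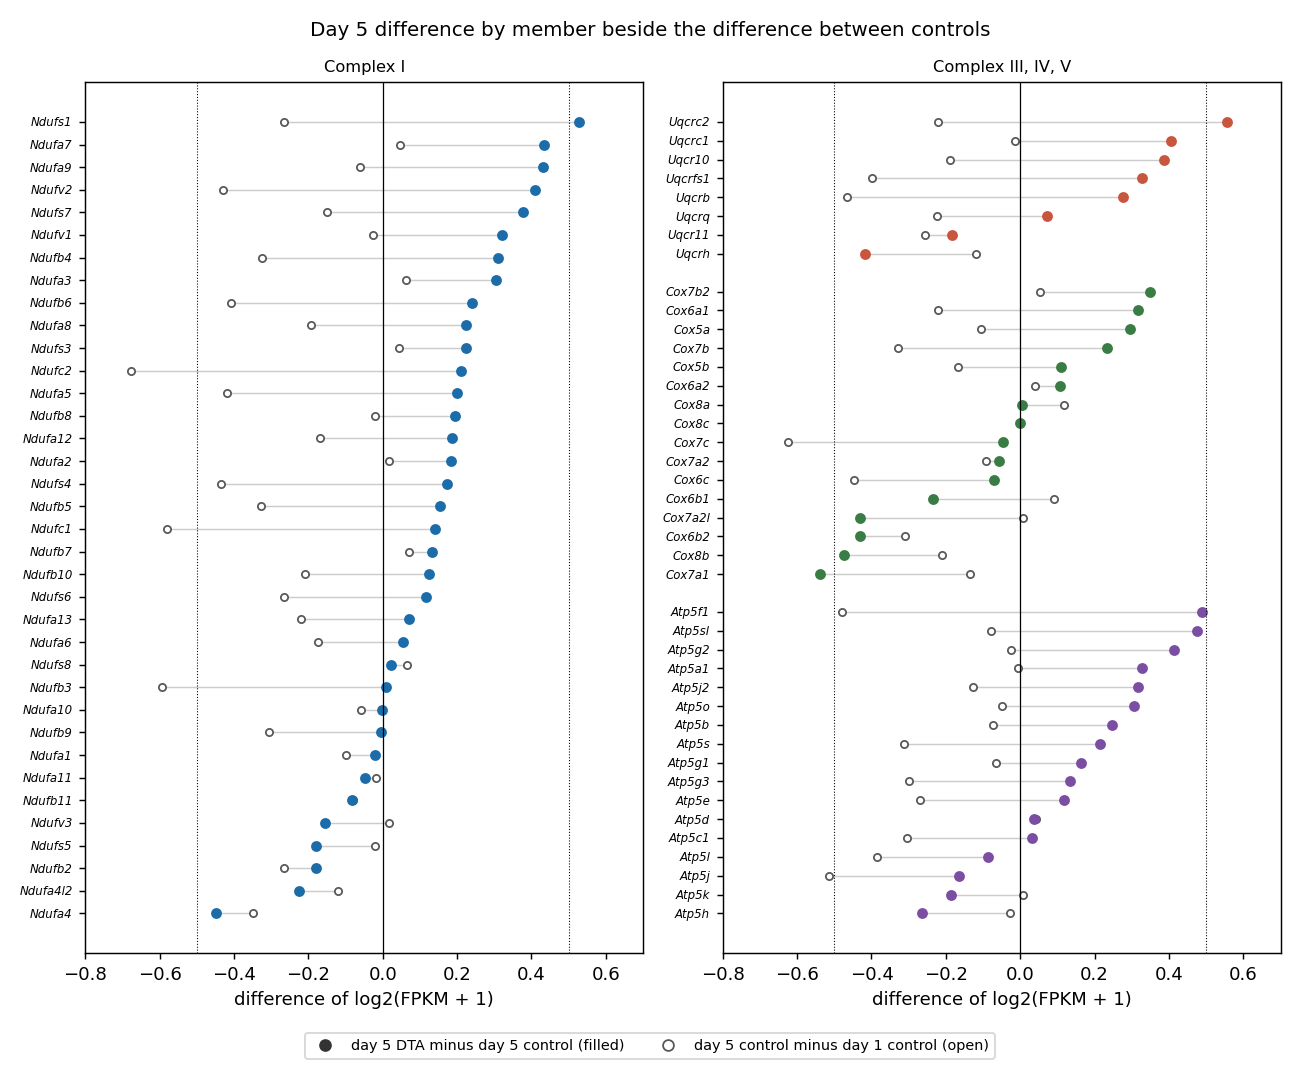
Differences of log2(FPKM + 1) by member, with complexes in separate blocks; 1 member is left out. Filled points are day 5 DTA minus day 5 control, open points are day 5 control minus day 1 control, and dotted lines mark a size of 0.5; among filled points of members at 5 FPKM or more, Uqcrc2 at 0.56 and Ndufs1 at 0.53 lie beyond the line above 0 and Cox7a1 at -0.54 beyond the line below 0.

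In complex I the 7 core subunits, which carry the flavin and the iron-sulfur clusters or line the quinone site, had positive differences in 7 of 7 genes at day 5, with a median of 0.38. Ndufs1, the largest subunit and a carrier of iron-sulfur clusters (mm9 chr1:63190166-63223396), stood at 33.6 FPKM in day 1 DTA, 31.5 FPKM in the day 1 control, 38.0 FPKM in day 5 DTA and 26.1 FPKM in the day 5 control. Day 5 DTA was the highest of the 4 libraries and the day 5 control the lowest. The day 5 difference was 0.53, a ratio of 1.46, and it passed the size of 0.5. It was 0.29 with median ratio scaling and, set against the day 1 control, 0.26, and the call was lost in both. Ndufv2, another iron-sulfur subunit, stood at 32.2 FPKM in day 5 DTA, 24.0 FPKM in the day 5 control and 32.6 FPKM in the day 1 control. Its day 5 difference was 0.41, but day 5 DTA was not above the day 1 control. Ndufv1, the flavin-binding subunit, had a difference of 0.32, Ndufs7 of 0.38, Ndufs3 of 0.22 and Ndufs8 of 0.02. Of these 4, Ndufs3 has a near-identical copy in the genome, which makes its value uncertain.

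The 28 accessory subunits of complex I had a median of 0.14 at day 5, with 20 above 0 and 8 below, and none was called. Ndufa9, which stabilises the junction of the matrix and membrane arms, stood at 41.4 FPKM in day 5 DTA, 30.4 FPKM in the day 5 control and 31.7 FPKM in the day 1 control, a day 5 difference of 0.43. Ndufa7 had the same difference, at 103.2 FPKM in day 5 DTA, 76.2 FPKM in the day 5 control and 73.7 FPKM in the day 1 control. Both stood above each control. Ndufb2, a small membrane-arm subunit, stood at 55.2 FPKM in day 5 DTA, 62.6 FPKM in the day 5 control and 75.4 FPKM in the day 1 control, a day 5 difference of -0.18, the lowest of the accessory subunits. Ndufs5 stood below both controls in day 5 DTA, and its locus in the files overlaps that of another gene symbol. The core median lay above the accessory median between the controls as well, at -0.08 and -0.18. It also did at day 5 with median ratio scaling, at 0.14 and -0.10.

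Ndufa4 had the lowest day 5 difference among the complex I symbols. Its product was long counted with complex I and has since been assigned to complex IV. Ndufa4 (mm9 chr6:11850373-11857446) stood at 215 FPKM in day 5 DTA, 294 FPKM in the day 5 control and 375 FPKM in the day 1 control. All 3 levels differed, and the step between the controls, -0.35, was nearly as large as the day 5 difference of -0.45. The day 5 difference did not reach 0.5 with the deposited scaling and passed it, at -0.69, with median ratio scaling. Set against the day 1 control it was -0.80. Ndufa4l2, a related gene known as a hypoxia-inducible inhibitor of complex I activity, was at 1.47 FPKM in both day 1 libraries, at 0.949 FPKM in day 5 DTA and at 1.28 FPKM in the day 5 control.

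Complex III had the highest median of the 4 complexes covered by the symbol families at day 5, 0.30, with 6 genes above 0 and 2 below. Uqcrc2, a core protein of the matrix side (mm9 chr7:127778703-127803037), stood at 72.3 FPKM in day 5 DTA, 48.8 FPKM in the day 5 control and 57.1 FPKM in the day 1 control. Day 5 DTA was above both. The day 5 difference was 0.56, a ratio of 1.48, the highest among all members. It was 0.31 with median ratio scaling and, set against the day 1 control, 0.33, and the call was lost in both. Uqcrc1, its partner core protein, stood at 96.7 FPKM in day 5 DTA, 72.7 FPKM in the day 5 control and 73.5 FPKM in the day 1 control, a difference of 0.41. Uqcrfs1, the Rieske iron-sulfur protein that moves electrons towards cytochrome c1, stood at 49.2 FPKM in day 1 DTA, 53.8 FPKM in the day 1 control, 51.1 FPKM in day 5 DTA and 40.6 FPKM in the day 5 control. Its day 5 difference was 0.33, and here the day 5 control was the library that stood low.

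The 5 small subunits of complex III had a median of 0.07. Uqcrh, the acidic hinge protein that contacts cytochrome c1 (mm9 chr4:115739570-115747675), stood at 132.1 FPKM in day 5 DTA, 177 FPKM in the day 5 control and 192.0 FPKM in the day 1 control, a day 5 difference of -0.42. Uqcrh has 1 near-identical copy in the genome, and how fragments were shared between copies was not given in the sources used here. Uqcr11, with 2 such copies, had -0.18, and Uqcrb, with 3, had 0.28. Uqcr10, without one, stood at 117 FPKM in day 1 DTA, 113 FPKM in the day 1 control, 129 FPKM in day 5 DTA and 98.7 FPKM in the day 5 control, a day 5 difference of 0.39. Over all complexes, 10 members had a copy of at least 95% identity over at least 80% of the transcript. Their median at day 5 was 0.01, against 0.14 for the 68 without. The loci of 10 members, Uqcrc2 and Atp5f1 among them, overlap the locus of another symbol in the files, and their reads may be mixed with those of that gene.

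Complex IV had a median of -0.02 at day 5. Its 9 ubiquitous nuclear subunits had a median of 0.01, and none was called. Cox5a, which with Cox5b lies on the matrix side, stood at 99.2 FPKM in day 5 DTA, 80.6 FPKM in the day 5 control and 86.8 FPKM in the day 1 control. Cox6b1, which faces the intermembrane space, stood at 138 FPKM in day 5 DTA, 163 FPKM in the day 5 control and 153 FPKM in the day 1 control. Their day 5 differences were 0.30 and -0.23, in opposite directions within 1 complex. Cox7a2l, a factor that joins complexes III and IV into supercomplexes, stood at 74.5 FPKM in day 5 DTA, against 100.7 FPKM in the day 5 control and 100.2 FPKM in the day 1 control. The controls were nearly equal here, and the difference was -0.43 with the deposited scaling and -0.67 with median ratio scaling.

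Some complex IV subunits exist in forms for particular tissues, and several of these were among the lowest members relative to control. Cox7a1, the heart and skeletal muscle form (mm9 chr7:30969190-30971049), fell to 3.44 FPKM in day 5 DTA, against 5.45 FPKM in the day 5 control and 6.08 FPKM in the day 1 control, a difference of -0.54. Cox8b, another muscle form, stood at 2.92 FPKM in day 5 DTA, 4.44 FPKM in the day 5 control and 5.29 FPKM in the day 1 control. Cox6b2, known from testis, stood at 4.72 FPKM in day 5 DTA, 6.72 FPKM in the day 5 control and 8.57 FPKM in the day 1 control. In each of these genes day 5 DTA was the lowest of the 3 libraries. The ubiquitous partners were far higher: Cox7a2 stood at 66.0 FPKM in day 5 DTA, 68.8 FPKM in the day 5 control and 73.4 FPKM in the day 1 control. Not all tissue forms were low: Cox7b2 stood at 0.368 FPKM in day 5 DTA, 0.0749 FPKM in the day 5 control and 0.0357 FPKM in the day 1 control, a day 5 difference of 0.35. Cox6a2, the muscle form of Cox6a1, stood at 0.137 FPKM in day 5 DTA, 0.0559 FPKM in the day 5 control and 0.0266 FPKM in the day 1 control, a day 5 difference of 0.11. Day 5 DTA was the highest library for both, at levels far under 5 FPKM. By contrast, Cox6a1 stood at 224 FPKM in day 5 DTA, 179.9 FPKM in the day 5 control and 210.0 FPKM in the day 1 control. Skeletal muscle markers, 7 genes, summed to 7.39 FPKM in day 5 DTA, 6.79 FPKM in the day 5 control and 7.30 FPKM in the day 1 control, with Tnnt3 listed at 0. Their part in the levels of Cox7a1 and Cox8b was not tested.

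In complex V, the ATP synthase, 13 of 17 genes were above 0 at day 5, with a median of 0.16, and none was called. Atp5b, given above, had a day 5 difference of 0.25. Atp5a1, the alpha subunit that alternates with beta in the catalytic head, stood at 246 FPKM in day 5 DTA, 196 FPKM in the day 5 control and 197 FPKM in the day 1 control, a difference of 0.33. Day 5 DTA stood above the control levels for both head subunits. The proton-carrying ring is made from an identical protein encoded by Atp5g1, Atp5g2 and Atp5g3. Atp5g3 was the most abundant of them at 212 FPKM in day 5 DTA, 193 FPKM in the day 5 control and 237 FPKM in the day 1 control. Atp5g2 stood at 141 FPKM in day 5 DTA, 105 FPKM in the day 5 control and 107 FPKM in the day 1 control, and has 3 near-identical copies. Atp5g1 stood at 54.4 FPKM in day 1 DTA, 52.3 FPKM in the day 1 control, 56.1 FPKM in day 5 DTA and 49.9 FPKM in the day 5 control. The order Atp5g3, Atp5g2, Atp5g1 held in each library that lists all 3.

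The peripheral stalk of complex V, which holds the head still, was divided. Atp5f1 stood at 85.7 FPKM in day 5 DTA, 60.8 FPKM in the day 5 control and 85.2 FPKM in the day 1 control, so its day 5 difference of 0.49 came with a difference of -0.48 between the controls. Atp5j stood at 57.3 FPKM in day 5 DTA, 64.3 FPKM in the day 5 control and 92.2 FPKM in the day 1 control. Atp5h stood at 118 FPKM in both DTA libraries, at 145 FPKM in the day 1 control and at 142 FPKM in the day 5 control. It was below control at both days, with differences of -0.30 at day 1 and -0.26 at day 5, and it has 4 near-identical copies.

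Transcript length moved with the day 5 differences of the members. Their longest coding transcripts measured 362 to 4715 bases, with a median of 823.5. At day 5 the members of up to 600 bases had a median difference of 0.01 (19 genes at 5 FPKM or more), those of over 600 and up to 1000 bases 0.13 (24), those of over 1000 and up to 2000 bases 0.22 (21) and longer ones 0.18 (8). The other genes of the same classes had 0.29, 0.23, 0.32 and 0.25, so short transcripts in general were not low. Across the 72 members, genes of the same libraries, the difference and log length were correlated with r = 0.34 and rho = 0.36, and across 9291 other genes with r = -0.10 and rho = -0.10. The core subunits were also the longer ones: those of complex I had a median length of 1540 bases, against 868 for the accessory subunits. After subtracting the median of genes of similar length, the complex I core median was 0.09 and the accessory median -0.12. The part of length in the order of core and accessory subunits was otherwise not tested.

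**Figure D3:**
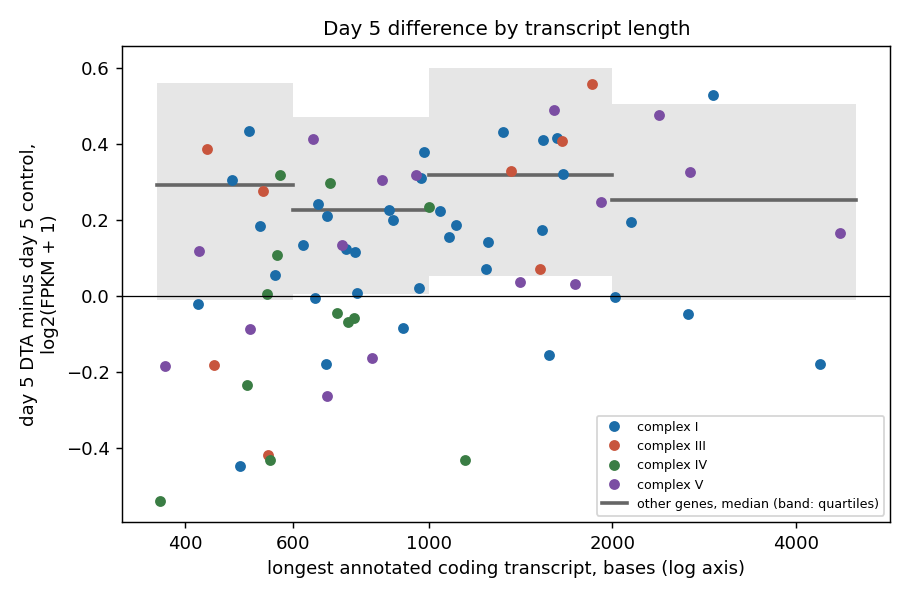
Day 5 DTA minus day 5 control, in log2(FPKM + 1), against the length of the longest coding transcript on a log axis, for members at 5 FPKM or more. The grey line and band are the median and quartiles of other genes; the shortest members scatter around a median of 0.01, where other genes of up to 600 bases have a median of 0.29.

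At day 1 the 22 members in the DTA file differed little from control. None of the 19 at 5 FPKM or more was called at size 1, where 2.67% of all genes were called, 2.06% higher and 0.61% lower. None was called at size 0.5 either, where 6.79% of all genes were, 5.34% higher and 1.45% lower. Differences of the 22 ran from -0.30 to 0.19 with a median of -0.04. At 5 FPKM or more the members' median was -0.06, against 0.05 over all genes at that level. Ndufs7, an iron-sulfur core subunit of complex I, had the highest, at 51.2 FPKM in day 1 DTA and 44.8 FPKM in the day 1 control, and Atp5h the lowest. Summed FPKM of the 22 were 1735 in day 1 DTA, against 1749 in the day 1 control. At day 5 the sums of the same genes were 1726 in DTA and 1549 in control. The day 5 control had the lowest of these sums, and its total over all genes listed in every file was also the lowest. That total was 93502 FPKM, against 100232 for the day 1 control, 101093 for day 1 DTA and 101950 for day 5 DTA. The 22 members made up 1.66% of it for the day 5 control and 1.69% for day 5 DTA. For day 1 DTA and its control the shares were 1.72% and 1.74%. The low sum came with a low FPKM total over the genes listed in every file, which is not a measure of library size. The cause was not tested. Of the 22 members 8 were above 0 at day 1 and 13 below. Among all 2623 genes at 5 FPKM or more, 1562 were above 0 and 1061 below. All 3 measured core subunits of complex I were above 0 at day 1, by 0.09 to 0.19, and no effect is read from so few genes. Cox7c and Cox5b of complex IV had -0.17 and -0.15. Against the day 5 control the median of day 1 DTA was 0.20, so its sign depends on which control is used.

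**Figure D4:**
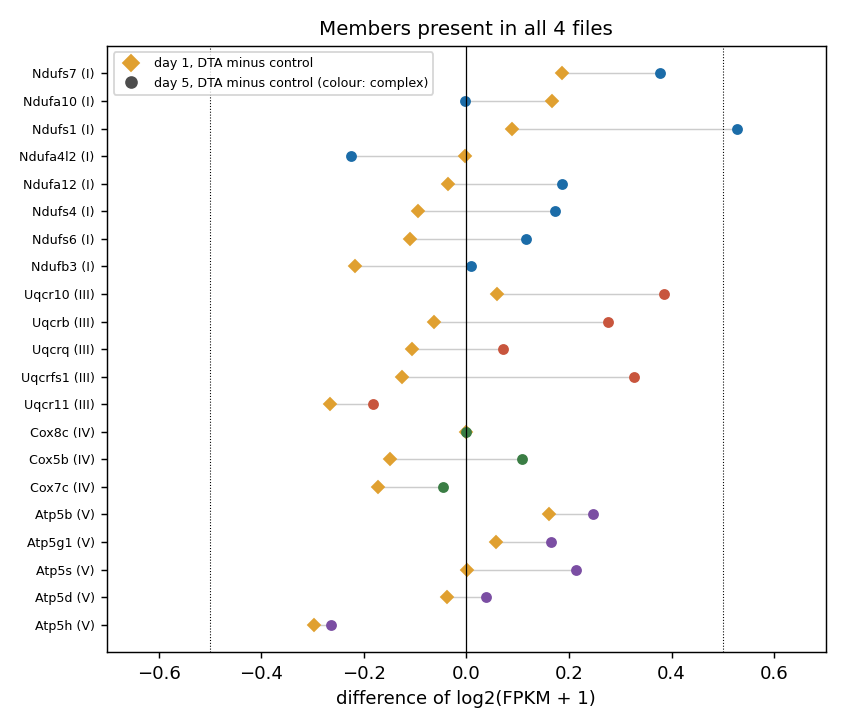
Members present in all 4 files, with 1 left out, as differences of log2(FPKM + 1), DTA minus control. Diamonds are day 1 and circles day 5, with dotted lines at a size of 0.5; the day 1 values lie between -0.30 and 0.19, and Ndufs1 at day 5, at 0.53, lies beyond a line.

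Among the members, differences between the controls were of a size similar to those between DTA and control. Between the day 5 and the day 1 control, members had a median of -0.16, with 14 above 0 and 63 below. Members at 5 FPKM or more had a median of -0.17. All genes at that level had a median of -0.06, with 3644 above 0 and 5677 below. No member of 73 was called at size 1, where 2.57% of all genes were called, 0.858% higher and 1.72% lower. At size 0.5, where 7.28% of all genes were called, no member was higher (1.77% of all genes) and 5 were lower (5.51% of all genes): Ndufc2, Cox7c, Ndufb3, Ndufc1 and Atp5j, with differences of -0.68, -0.63, -0.59, -0.58 and -0.51. Ndufc2, a membrane-arm subunit of complex I, stood at 56.3 FPKM in day 5 DTA, 48.5 FPKM in the day 5 control and 78.2 FPKM in the day 1 control. Cox7c, a small complex IV subunit, stood at 55.5 FPKM in day 1 DTA, 62.7 FPKM in the day 1 control, 39.0 FPKM in day 5 DTA and 40.3 FPKM in the day 5 control. Ndufb3, another membrane-arm subunit, stood at 63.7 FPKM in day 1 DTA, 74.2 FPKM in the day 1 control, 49.1 FPKM in day 5 DTA and 48.9 FPKM in the day 5 control. In Cox7c and Ndufb3 both day 5 libraries were lower than both day 1 libraries. As above, day and sex cannot be told apart between the controls.

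Genes that work beside the members were described from lists. Succinate dehydrogenase, which is complex II and feeds electrons from the tricarboxylic acid cycle, had 4 of 4 genes above 0 at day 5, with a median of 0.42. Sdhd, its membrane anchor, rose to 46.6 FPKM in day 5 DTA, against 28.4 FPKM in the day 5 control and 31.8 FPKM in the day 1 control, a difference of 0.70 that passed the size of 0.5. Sdha, the flavoprotein, stood at 128 FPKM in day 5 DTA and 92.4 FPKM in the day 5 control. Among 9 subunits and carriers outside the symbol families, Cyc1 (cytochrome c1 of complex III) rose and Cox4i2 fell. Cyc1 stood at 92.8 FPKM in day 5 DTA, 61.3 FPKM in the day 5 control and 70.6 FPKM in the day 1 control, a difference of 0.59. Sdhd and Cyc1 fell short of 0.5 with median ratio scaling. Cox4i2, the form of complex IV subunit 4 that is induced by low oxygen, stood at 12.8 FPKM in day 5 DTA, 28.3 FPKM in the day 5 control and 27.3 FPKM in the day 1 control, a difference of -1.09 that passed size 1. Its ubiquitous partner Cox4i1 stood at 225 FPKM in day 5 DTA, 237 FPKM in the day 5 control and 260.3 FPKM in the day 1 control.

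Of 26 assembly factors of the respiratory complexes in the files, 25 were above 0 at day 5, with a median of 0.30. At 5 FPKM or more, 8 of 22 rose at size 0.5 and none fell, where 26.5% of all genes rose and 4.58% fell. With median ratio scaling the median was 0.09 and 4 rose. Cox10, which makes the heme of complex IV, stood at 8.60 FPKM in day 1 DTA, 5.85 FPKM in the day 1 control, 13.3 FPKM in day 5 DTA and 6.74 FPKM in the day 5 control. Atpaf2, an assembly factor of ATP synthase, stood at 10.3 FPKM in day 1 DTA, 7.37 FPKM in the day 1 control, 14.1 FPKM in day 5 DTA and 7.30 FPKM in the day 5 control. For both genes day 5 DTA was highest, followed by day 1 DTA. In the tricarboxylic acid cycle and pyruvate dehydrogenase, 17 of 17 genes were above 0 at day 5, with a median of 0.33, and 1 of 16 rose at size 0.5. Over all genes at 5 FPKM or more, the median was 0.26, 7370 of 9883 were above 0 and 26.5% rose, as given above. With median ratio scaling the list median was 0.15 and no gene rose. The gene that rose with the deposited scaling was Dld, the shared dihydrolipoamide dehydrogenase, at 46.9 FPKM in day 5 DTA and 30.4 FPKM in the day 5 control. Of 15 targets of hypoxia-inducible factor, none was called among the 12 at 5 FPKM or more, and the median was 0.02, where 31.1% of all genes were called at size 0.5. With median ratio scaling the median was -0.22 and Slc2a1 and Pgk1 fell, by 0.70 and 0.64 on the log2 scale. Set against the day 1 control, both also passed 0.5. Slc2a1, the glucose transporter GLUT1, stood at 46.9 FPKM in day 5 DTA, 64.7 FPKM in the day 5 control and 71.7 FPKM in the day 1 control.

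Regulators of mitochondrial genes had some of the larger differences in these lists. Of 14 in the files, 8 rose and 4 fell at size 0.5, where 26.5% of all genes rose and 4.58% fell. With median ratio scaling 3 rose and 4 fell. At size 1, with the deposited scaling, Pprc1 and Tfb2m rose and Ppargc1b and Esrrb fell. Ppargc1b, the coactivator PGC-1beta, stood at 4.19 FPKM in day 5 DTA and 15.8 FPKM in the day 5 control, a difference of -1.70. Esrrb, the estrogen-related receptor beta, which is known from rods, stood at 149 FPKM in day 1 DTA, 142 FPKM in the day 1 control, 40.9 FPKM in day 5 DTA and 128 FPKM in the day 5 control. Day 5 DTA stood alone below the other 3, with a difference of -1.63. Rod marker sums were low in the same library, as given above, and their part in the level of Esrrb was not tested. Pprc1, a coactivator of the same family, stood at 13.4 FPKM in day 5 DTA and 4.88 FPKM in the day 5 control, a difference of 1.29. Tfb2m, a transcription factor of mitochondrial DNA, stood at 8.28 FPKM in day 1 DTA, 6.49 FPKM in the day 1 control, 13.6 FPKM in day 5 DTA and 6.22 FPKM in the day 5 control, a day 5 difference of 1.01. Nrf1 itself stood at 16.5 FPKM in day 5 DTA and 11.7 FPKM in each control. Esrrb, Ppargc1b and Pprc1 stayed past size 1 with both other scalings, and Tfb2m did not.

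**Figure D5:**
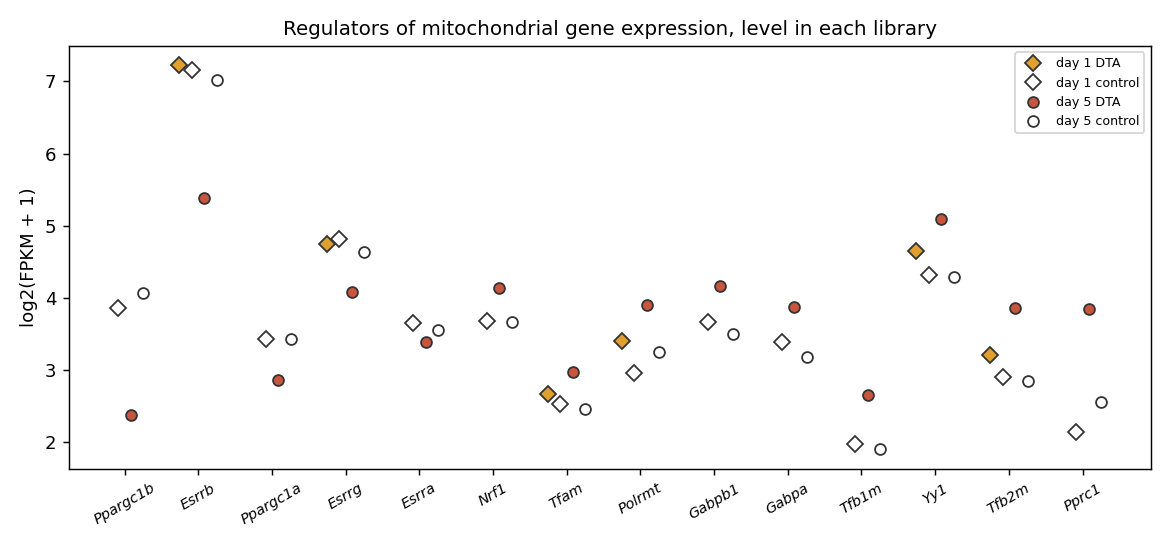
Level of regulators of mitochondrial gene expression, as log2(FPKM + 1), with 1 point per library. Ppargc1b at 4.19 FPKM and Esrrb at 40.9 FPKM in day 5 DTA lie below every other library shown for those genes, and Pprc1 at 13.4 FPKM and Tfb2m at 13.6 FPKM in day 5 DTA lie above.

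Set beside other large complexes at day 5, the oxidative phosphorylation genes had a median of 0.13, against 0.06 for 80 cytosolic ribosomal protein genes and 0.42 for 39 proteasome subunit genes. At day 1, over the genes in the day 1 DTA file, their median was -0.04, against -0.16 for the ribosomal and 0.0003 for the proteasome genes. With 1 library per group these differences between gene sets were not tested.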

How the data were processed

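The authors extracted RNA from whole retinas with Sepazol and made libraries with the mRNA-seq kit of Illumina, as stated in the labels' protocols. The deposited values are FPKM per gene on mm9, with a lower and an upper bound and a status, per the file headers. Cufflinks 2.1.1, CASAVA 1.8.2 and bcl2fastq 1.8.4 are named in the submitters' processing notes. The aligner and the annotation used were not given in the sources used here. FPKM depends on the whole library, so a loss of abundant transcripts lifts all others. The authors' bounds were not used as errors: at 5 FPKM or more, the upper bound lay below the FPKM itself in 55 of 70 members in day 5 DTA and 57 of 72 in the day 5 control.

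Genes were joined on symbol, FPKM of several loci were summed, and lines with status FAIL or HIDATA were read as missing. Every member had status OK. Differences were computed on log2(FPKM + 1) with a pseudocount of 1, in Python 3.11.15 with pandas 2.3.3 and numpy 2.4.6, and figures with matplotlib 3.10.9. The size rule was run on simulated data with planted ratios and small noise. That run checks the arithmetic of the rule and cannot tell how often it calls wrongly in these libraries. Depth was estimated by taking the commonest low value of FPKM times transcript length as 1 fragment. Transcript lengths are the longest coding transcripts of GENCODE vM1. Near-identical copies were searched with BLAST 2.17.0. Named are, per complex, the 3 highest and 3 lowest day 5 differences, members called at size 1, members in the day 1 DTA file, tissue forms with their partners and a fixed set of core subunits, and up to 3 genes of each other list. Of these 51 members some are given only by range, and a few genes outside this rule (Ndufc1, Ndufc2, Tfb2m, Cox4i1, Nrf1 and the core subunits Ndufs3, Ndufs8 and Ndufv2, which are not in that set) were chosen after their values were seen. Members and lists were chosen with earlier results of these data known. Other pseudocounts, floors, scalings, controls, locus choices and a length adjustment were tried. One member enters the counts, sums and medians and is not reported here on its own.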

Additional observations from a re-analysis of the deposited data

How the results depend on the processing

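No member was called at size 1 in any comparison under any alternative run. At day 5 the counts at size 0.5, 2 higher and 1 lower, changed with most scalings. There were 3 higher and 1 lower with a pseudocount of 0.1, where Atp5sl also passed, at 0.51. There were 1 higher and 0 lower with a pseudocount of 5, and 0 lower with a floor of 20 FPKM. There were 0 higher and 6 lower with median ratio scaling, 0 and 5 when the scaling sum left out abundant and photoreceptor genes, 0 and 8 against the day 1 control, and 0 and 6 after the length adjustment. Against the mean of both controls, an alternative chosen after seeing the data, there were 0 higher and 3 lower. The day 5 median of 0.13 turned to -0.0928 with median ratio scaling, -0.051 with the reduced sum, -0.0918 against the day 1 control and -0.12 after the length adjustment. The scalings lower every day 5 DTA level by construction, and the all-gene median fell to 0.03 and 0.07 with them. Ndufs1 and Uqcrc2 kept their calls with the pseudocount of 0.1 and the floor of 20 FPKM, and Uqcrc2 with the pseudocount of 5. In the other settings named here these calls were lost. Cox7a1 lost its call with the pseudocount of 5 and the floor of 20 FPKM.

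At day 1 the median of -0.04 became 0.20 against the day 5 control and 0.0752 against the mean of both controls. Between the controls the 5 lower members became 3 with the reduced sum and 1 after the length adjustment. The cause was not tested. Leaving out members with a near-identical copy or members under 5 FPKM, both added after seeing the data, kept every direction of the group medians. No paired analysis was possible because each group has 1 library, and leaving out a replicate was not possible either. One library per group, a short day 1 DTA file and fragment assignment among short or copied genes limit every value.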
